A study of Mus musculus with 6 samples.

Results

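The 10 genes described here, Hdc, Siglecf, Mcpt8, Cpa3, Fcer1a, Ms4a2, Prg2, Epx, Tpsb2 and Cma1, mark mast cells, basophils and eosinophils, and were taken by symbol from the 53819 genes of a table of read counts. All 10 had a row in the table. Of these, 9 passed the filter on low counts, with 15232 genes in all, and Tpsb2 did not. The samples were mouse leukaemia cells sorted from spleen after transplantation of primary leukaemia carrying BCR-ABL and NUP98-HOXA9, fusion genes that together serve as a mouse model of blast-crisis chronic myeloid leukaemia (bcCML). There were 3 libraries with the genotype label SLC6A6 KO (KO1, KO2 and KO3) and 3 labelled SLC6A6 WT (WT1, WT2 and WT3), and both fusions were common to all 6. In place of a knockout, the title names a knock-down. The allele, the mouse strain, the age of the animals, the sorting marker and the number of mice behind each group were not found in the labels. The p-values below therefore rest on the spread among these 6 libraries, which may be technical. Per-library values are given in the order of replicate numbers, KO1 to KO3 and WT1 to WT3.

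Mast cells, basophils and eosinophils are granule-bearing white blood cells that share a progenitor region of the myeloid tree, in which GATA factors play a central part. Mast cells and basophils bind IgE through a receptor made of an alpha chain that holds the antibody (Fcer1a), a beta chain that amplifies the signal (Ms4a2) and gamma chains shared with other Fc receptors (Fcer1g). On activation they release histamine, which the enzyme histidine decarboxylase (Hdc) makes from histidine, together with proteases, leukotrienes and prostaglandins. A rise in blood basophils is a known feature of advancing chronic myeloid leukaemia in patients.

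Library totals lay between 42829294 and 49537098 counts, so that 3 counts in a library, the limit set by a count of 0, correspond to 0.0594 to 0.0727 CPM (counts-per-million of the TMM-scaled library size). The chi-square per degree of freedom between libraries of a group was 32.8 to 113, more than the same library sequenced again would give. Separate preparations from the same RNA or the same animal cannot be recognised by this value. Slc6a6, the taurine transporter gene named in the labels, was at 125, 132 and 133 CPM in KO, and at 151, 145 and 145 CPM in WT. Its log2 fold change was −0.18 ± 0.07 (SE, n = 3 against 3; adjusted p = 0.196 in edgeR's quasi-likelihood test). Read counts per gene do not show whether the transcript is intact, so this level does not check a knockout. A knock-down, the word in the title, would be read at the transcript level, where Slc6a6 was 11.7% lower and did not pass the test. KO and WT below stand for the labels only. Transcripts of Kdm5d, Uty, Eif2s3y and Ddx3y, all Y-linked, summed to 10274 to 11236 counts in the libraries labelled KO and to 0, 0 and 1 in those labelled WT. Genotype label and sex of the source cells therefore cannot be told apart in any difference below. Ptprc, the pan-leukocyte gene for CD45, was present in all 6 libraries, at 50.1 to 148 CPM.

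Among the 10 genes, Hdc passed the test, and it was lower in the libraries labelled KO. Siglecf and Cma1 also had all 3 KO values below all 3 WT values but did not pass the test. Mcpt8, Prg2, Epx, Fcer1a, Ms4a2 and Cpa3 overlapped between the groups, and Tpsb2 had no read in any library. Hence 1 of 9 tested members passed edgeR's test at an adjusted p below 0.05, against 3.56% of all tested genes. By direction, 1 was lower, against 1.92%, and 0 were higher, against 1.64%. At an unadjusted p below 0.05 the same test had 0 members higher and 3 lower, where 11.6% and 10.4% of all tested genes were. DESeq2 called 0 higher and 3 lower, where it called 7.06% and 6.05% of the genes it gave an adjusted p. Limma-voom called 0 in either direction, against 1.34% and 1.62% of all tested genes. Groups did not overlap for 3 of 9 members, close to the 28.0% found over all tested genes. All 3 had KO below WT, where 14.4% of all tested genes did, and 0 had KO above WT, where 13.6% did. With 9 genes these counts are not a result about the members. The median log2 fold change was −0.04 over the 9 tested members and 0.01 over all tested genes. In sorted bulk RNA, fewer cells of a type and less RNA per cell cannot be told apart.

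**Figure D1:**
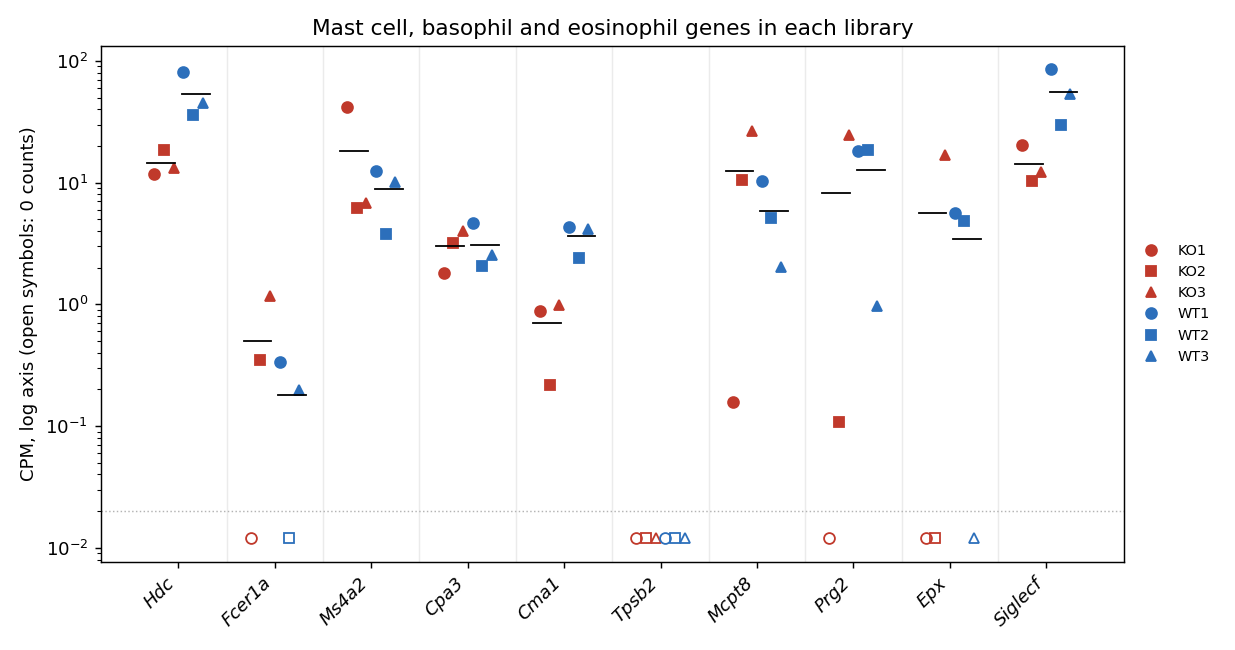
CPM on a log axis for the 10 genes in each library, red for KO and blue for WT, with a symbol for each replicate number and a black line at each group mean; open symbols under the dotted line mark libraries with 0 counts. Hdc, Siglecf and Cma1 have all KO symbols below all WT symbols, while Prg2 and Epx are high in KO3, WT1 and WT2 and at or near 0 elsewhere.

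The promoters of 8 of the 10 genes were found in RefSeq's table for GRCm38.p6. The 250 bases before the start site are printed for Hdc, Siglecf and Cma1, the 3 genes whose groups did not overlap, and for Ms4a2 and Mcpt4. The last of these is a related protease gene that was higher in KO and lies in the same gene row as Cma1. Capitals mark matches on either strand to AGATAA or TGATAA (letters bound by GATA factors), CACGTG or CATGTG (E-boxes of the kind bound by MITF) and TTGCNNAA (a C/EBP-type sequence).
Hdc, chr2:126618679-126618928, minus strand: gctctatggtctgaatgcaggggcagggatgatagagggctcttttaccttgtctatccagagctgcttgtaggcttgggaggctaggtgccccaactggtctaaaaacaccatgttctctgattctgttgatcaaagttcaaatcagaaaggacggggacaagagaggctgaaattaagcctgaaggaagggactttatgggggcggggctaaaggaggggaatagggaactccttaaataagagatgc
Siglecf, chr7:43351091-43351340, plus strand: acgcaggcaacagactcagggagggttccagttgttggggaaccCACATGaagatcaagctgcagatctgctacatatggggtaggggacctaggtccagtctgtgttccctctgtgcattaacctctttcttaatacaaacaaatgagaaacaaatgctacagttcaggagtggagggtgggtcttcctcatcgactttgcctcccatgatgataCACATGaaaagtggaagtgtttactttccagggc
Cma1, chr14:55944676-55944925, minus strand: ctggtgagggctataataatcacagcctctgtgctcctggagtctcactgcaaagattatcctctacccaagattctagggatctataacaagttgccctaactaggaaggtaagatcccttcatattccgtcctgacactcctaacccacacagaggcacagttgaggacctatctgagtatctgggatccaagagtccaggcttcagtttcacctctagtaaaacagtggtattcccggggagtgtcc
Ms4a2, chr19:11623720-11623969, minus strand: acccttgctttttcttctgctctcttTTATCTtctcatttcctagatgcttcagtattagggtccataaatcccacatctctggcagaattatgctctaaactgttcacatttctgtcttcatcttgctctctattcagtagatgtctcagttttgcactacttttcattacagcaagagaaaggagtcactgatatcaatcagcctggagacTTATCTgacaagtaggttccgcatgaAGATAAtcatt
Mcpt4, chr14:56062311-56062560, minus strand: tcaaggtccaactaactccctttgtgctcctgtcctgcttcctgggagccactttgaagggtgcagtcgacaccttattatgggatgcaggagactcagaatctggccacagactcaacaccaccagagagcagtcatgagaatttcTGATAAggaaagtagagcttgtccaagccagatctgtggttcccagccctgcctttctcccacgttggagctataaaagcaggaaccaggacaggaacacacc
The windows of Hdc and Cma1 hold none of these letters. Siglecf has a pair of E-box matches, CACATG as read on the printed strand. Ms4a2 has GATA matches starting at bases −224, −37 and −11 from the start site, and Mcpt4 has a GATA match starting at base −103. Among the 8 members with a promoter, a GATA match was found for Cpa3, Fcer1a and Ms4a2 (3 of 8), against 16.5% of 32536 distinct windows of the same length in the table. An E-box match was found for Siglecf and Fcer1a (2 of 8, against 17.7%), and a C/EBP match for Fcer1a (1 of 8, against 9.57%). The letters overlap no other motif of the set in these windows. A match is a description of the sequence only. Gata2, a GATA factor of stem cells, mast cells and basophils, was at 703, 831 and 529 CPM in KO and 672, 553 and 691 CPM in WT, and Gata1 at 312, 227 and 324 against 219, 262 and 226 CPM. Neither gene passed the test, and both overlapped between the groups.

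Hdc, the histamine-forming enzyme, was at 11.7, 18.6 and 13.3 CPM in KO and at 80.7, 36.1 and 44.7 CPM in WT. The groups did not overlap, and WT1 stood above the other WT libraries. The group means were 14.5 ± 3.62 and 53.8 ± 23.7 CPM (SD, n = 3 each). Hdc was 73.0% lower in KO, with a log2 fold change of −1.89 ± 0.33 (SE; adjusted p = 0.0344, edgeR). It was lower in each of the 6 fits that left out 1 library, but passed the test in 3 of them. The adjusted p was 0.1205 without KO1, 0.110 without KO3 and 0.106 without WT3.

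The chains of the IgE receptor differed in level and in pattern. Fcer1a, the chain that binds IgE, was close to the detection limit, with 0, 16 and 48 counts in KO and 17, 0 and 9 counts in WT. That is at most 1.16 CPM, and 0 in 1 library of each group. Ms4a2, the signal-amplifying beta chain, was at 41.7, 6.14 and 6.79 CPM in KO and 12.4, 3.81 and 10.2 CPM in WT. KO1 had the highest Ms4a2 level of all libraries while it had no Fcer1a read. The fitted log2 fold changes were 1.47 ± 1.56 for Fcer1a (adjusted p = 0.639) and 1.05 ± 0.81 for Ms4a2 (adjusted p = 0.508, edgeR). Without KO1 the Ms4a2 value was −0.44, and without KO3 that of Fcer1a was −0.039. The gamma chain Fcer1g, which macrophages, neutrophils and NK cells use too, fell. It was at 35.3, 20.4 and 34.6 CPM in KO and 141, 64.8 and 80.7 CPM in WT, 68.5% lower with no overlap (log2 fold change −1.66 ± 0.34, adjusted p = 0.0474). Its adjusted p lay between 0.0613 and 0.127 in the fits without 1 library.

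Of the mast cell proteases, Cpa3, a carboxypeptidase stored in mast cell and basophil granules, was at 1.8, 3.2 and 4.0 CPM in KO and 4.66, 2.07 and 2.52 CPM in WT. The groups overlapped almost wholly (log2 fold change −0.04 ± 0.45, adjusted p = 0.972, edgeR), and the sign turned positive without KO1 (0.22) and without WT1 (0.37). Cma1, a chymase of connective tissue mast cells, had 39, 10 and 41 counts in KO and 217, 115 and 188 counts in WT. In CPM this was 0.696 ± 0.419 in KO and 3.63 ± 1.04 in WT (SD, n = 3), with every KO library below every WT library. The fit put Cma1 80.8% lower (log2 fold change −2.38 ± 0.60), but the adjusted p was 0.0771 in edgeR, and 0.0617 to 0.216 without 1 library. DESeq2 gave an adjusted p of 0.00210 and limma-voom 0.0669. Tpsb2, a tryptase that is among the most abundant proteins of mature connective tissue mast cells, had 0 counts in all 6 libraries, and so had its relatives Tpsab1 and Tpsg1.

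Cma1 lies in a row of serine protease genes on mouse chromosome 14, and the genes of that row had different patterns. In the order of RefSeq's GRCm38.p6 the row runs Cma1, Cma2, Mcpt1, Mcpt2, Mcpt9, Mcpt4, Mcpt8 and Ctsg. Mcpt2, a chymase of mucosal mast cells, rose, with 6.19, 8.86 and 9.31 CPM in KO against 2.38, 1.01 and 2.59 CPM in WT. That is 4.07-fold (log2 fold change 2.03 ± 0.41, adjusted p = 0.0468, edgeR). Mcpt4, a chymase of connective tissue mast cells like Cma1, rose from 2, 2 and 0 counts in WT to 97, 80 and 48 counts in KO. Its fitted log2 fold change was 5.80 ± 0.81 (adjusted p = 0.0204), a value that rests on only 4 WT counts. Mcpt1 and Ctsg overlapped between the groups (adjusted p = 0.957 and 0.846), and Cma2 and Mcpt9 had 0 counts in every library. Mcpt2 lost its call in each of the 6 fits without 1 library (adjusted p up to 0.128). Mcpt4 kept it only without KO2 (0.0384) and reached 0.0756 without KO1. Reads could be told apart between these genes to a large extent. No 100-base window of Cma1, Mcpt1, Mcpt2 or Mcpt8 transcripts occurs unchanged in a transcript of another gene in GENCODE M21, and 1 of 1009 windows of Mcpt4 does.

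**Figure D2:**
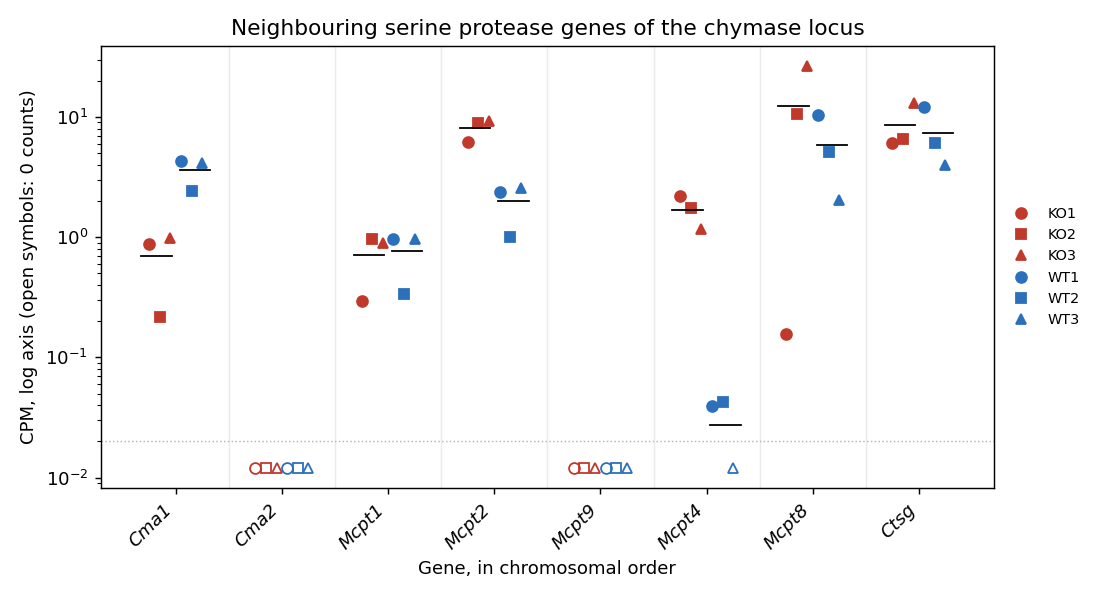
CPM on a log axis for 8 neighbouring serine protease genes in chromosomal order, red for KO and blue for WT, with group means as black lines and open symbols for 0 counts. Cma1 is lower in all KO libraries, Mcpt2 and Mcpt4 are higher in all KO libraries, and Mcpt8 spans both groups, from 0.158 CPM in KO1 to 26.5 CPM in KO3.

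Mcpt8, a protease restricted to basophils among mature blood cells, did not follow the genotype labels. It had 7, 483 and 1095 counts in KO and 521, 242 and 92 counts in WT, which is 0.158, 10.5 and 26.5 CPM against 10.3, 5.10 and 2.03 CPM. The lowest and the highest of the 6 libraries both carried the KO label. The log2 fold change was 1.09 ± 1.27 (adjusted p = 0.675, edgeR), and it was −0.13 without KO3. Prss34, another granule protease of basophils, showed the same order of libraries within KO, with 0, 6.58 and 21.3 CPM, and 17.8, 8.62 and 1.75 CPM in WT. KO1 thus had 7 reads of Mcpt8 and none of Prss34.

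The eosinophil granule genes were present in some libraries of each group and close to 0 in the others. Prg2, which encodes major basic protein, had 0, 5 and 1012 counts in KO, and 924, 883 and 44 counts in WT. Epx, eosinophil peroxidase, had 0, 0 and 697 counts in KO and 283, 228 and 0 counts in WT. Both genes were therefore high in KO3, WT1 and WT2 and low or undetected in KO1, KO2 and WT3. In CPM, Prg2 stood at 24.5 in KO3, 18.3 in WT1 and 18.6 in WT2, and Epx at 16.9, 5.61 and 4.80. The less abundant eosinophil genes Prg3 and Ear6 were detected in the same libraries, with 68, 31 and 48 counts of Prg3 and 22, 16 and 17 counts of Ear6 in KO3, WT1 and WT2, and 0 counts of each in the other 3. Ear2, another eosinophil granule gene, too low for the test, had a different pattern, with 47, 9 and 11 counts in KO and 10, 8 and 1 counts in WT, highest in KO1. Its reads are harder to assign, since 13.9% of its 100-base transcript windows also occur in Ear10 or a pseudogene. Il5ra, the receptor chain for the eosinophil growth factor interleukin-5, had 0 counts in all libraries.

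Fits between the labelled groups were accordingly wide for these genes, with log2 fold changes of −0.62 ± 1.90 for Prg2 and 0.69 ± 2.22 for Epx (adjusted p = 0.891 and 0.898, edgeR). Limma-voom gave −4.60 for Prg2 (adjusted p = 0.396) and −2.63 for Epx. Library KO3 held 1012 of the 1017 KO counts of Prg2 and all 697 of Epx. Without it the Prg2 value was −7.78 (adjusted p = 0.121) and that of Epx was negative against a KO group at 0. DESeq2 gave no adjusted p for either gene.

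Siglecf, a sialic acid-binding receptor used to recognise eosinophils and also carried by alveolar macrophages, was more abundant and did not share this pattern. It was at 20.2, 10.3 and 12.2 CPM in KO and at 85.2, 29.5 and 53.2 CPM in WT. The groups did not overlap, and KO1, with no Prg2 or Epx read, had the highest Siglecf level of its group. The means were 14.2 ± 5.26 and 56.0 ± 27.9 CPM (SD, n = 3), 74.6% lower in KO (log2 fold change −1.98 ± 0.42, adjusted p = 0.0546, edgeR). The adjusted p moved between 0.0462 without WT2 and 0.153 without KO3. DESeq2 gave 1.09e-05 and limma-voom 0.0853.

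**Figure D3:**
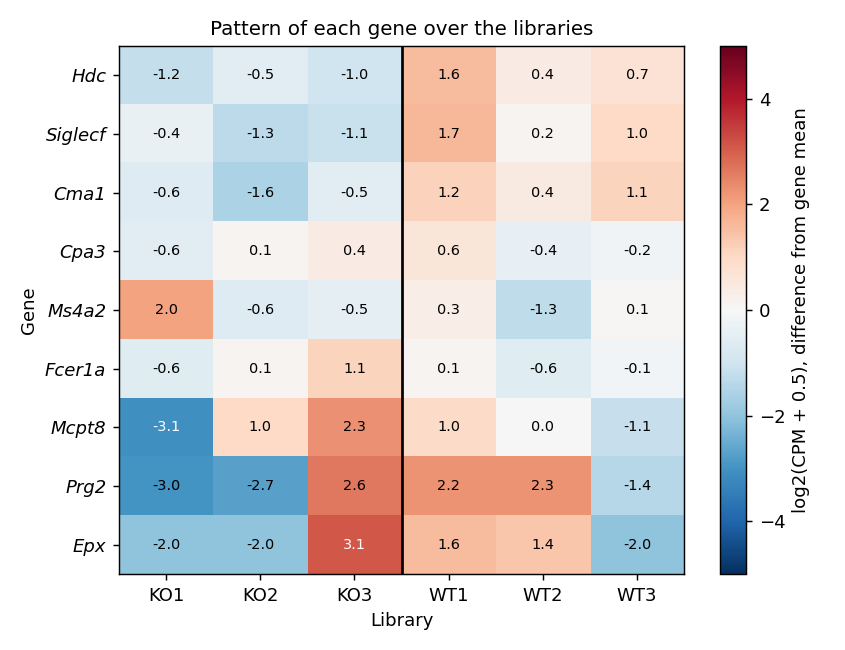
Heat map of log2(CPM + 0.5) for the 9 tested genes (rows) in the 6 libraries (columns), as the difference from each gene's mean over all libraries; red is above and blue below the mean, and the black line separates KO from WT. Hdc, Siglecf and Cma1 change colour at the line, Prg2 and Epx are red in KO3, WT1 and WT2, and Ms4a2 is reddest in KO1 (2.0).

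The 10 genes thus fell into several patterns over the same 6 libraries. WT1 held the highest value of 4 genes (Hdc, Siglecf, Cma1 and Cpa3), KO3 that of 4 (Mcpt8, Prg2, Epx and Fcer1a) and KO1 that of 1 (Ms4a2). The likeness of patterns was measured as the root mean square difference of log2(CPM + 0.5), each gene centred on its mean over the 6 libraries, where 0 is an identical pattern. It was smallest, 0.36, between Cpa3 and Fcer1a, at levels of at most 4.66 and 1.16 CPM. At low levels the added 0.5 CPM narrows such differences. It was 0.37 between Cma1 and Siglecf, 0.49 between Siglecf and Hdc, and 0.57 between Cma1 and Hdc. Between Prg2 and Epx it was 0.725, between Mcpt8 and Epx 1.52, and between Ms4a2 and Prg2 3.10. The 6 libraries share their processing and their group differences, so these distances are descriptions.

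Among 9845 other genes with a mean of at least 5 CPM, the patterns nearest to Hdc were those of Cped1 (0.14), Dhrs7 (0.14), Il1bos (0.17), Sla2 (0.18) and Sla (0.19). Sla and Sla2 encode Src-like adaptor proteins that dampen receptor signalling in lymphocytes, and Dhrs7 encodes a dehydrogenase. Il1bos is antisense to the interleukin-1 beta gene, and reads of bases shared by the pair cannot be told apart because the library chemistry does not mark strand. How many bases they share was not examined. Of these 5 genes, Cped1 did not pass the test (adjusted p = 0.0590, edgeR), and the others were 69.2% to 74.7% lower in KO. Each of those 4 lost the call without KO1, KO3 or WT3, Dhrs7 and Sla also without KO2 (adjusted p = 0.0659 and 0.0552), and Dhrs7 in limma-voom (0.0795). Alox5 was at rank 8 by this measure, Fcer1g at rank 82 and Siglecf at rank 104, while Ms4a2, Mcpt8 and Prg2 were at ranks 9526, 9678 and 9786.

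Levels were compared between genes per kilobase of exon, with exon lengths from GENCODE M21, which may differ from the annotation used for counting. In WT the order was Siglecf at 20.06 ± 10.003 CPM per kilobase, Prg2 at 15.1 ± 12.05, Hdc at 8.43 ± 3.70, Mcpt8 at 5.83 ± 4.20, Cma1 at 3.33 ± 0.958, Ms4a2 at 3.12 ± 1.58, Cpa3 at 2.03 ± 0.912, Epx at 1.27 ± 1.11 and Fcer1a at 0.179 ± 0.170 (SD, n = 3). The mean ± SD ranges of neighbours in this order overlapped in every case. In KO, Mcpt8 had the highest mean level per kilobase, 12.4 ± 13.3, followed by Prg2 at 9.80 ± 16.9, both set largely by KO3.

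**Figure D4:**
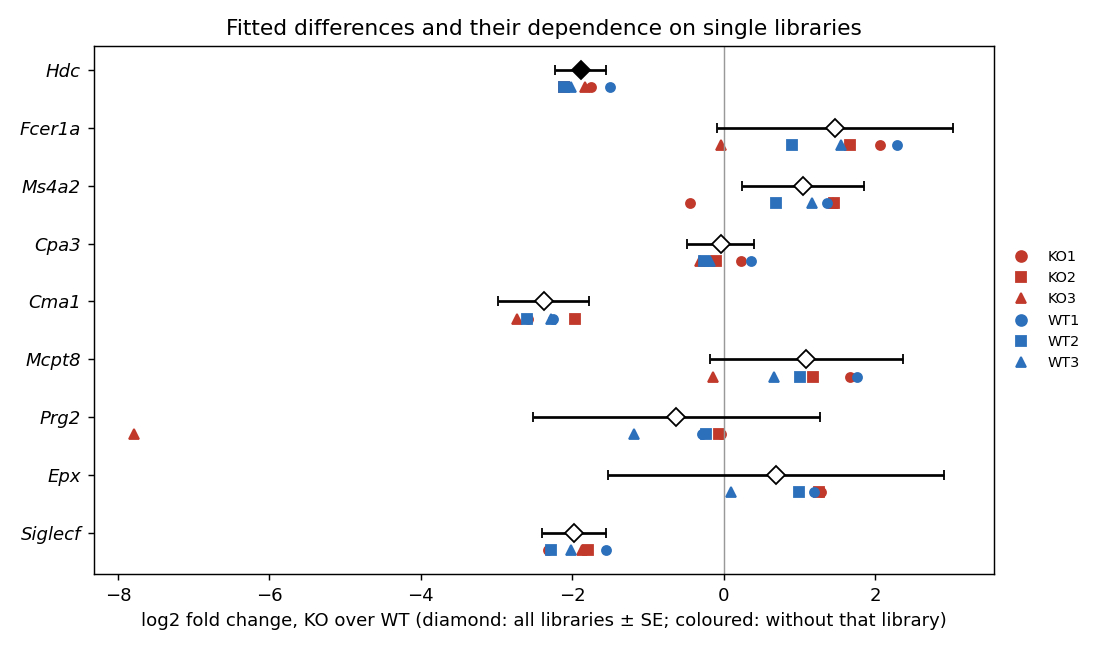
Fitted log2 fold change of KO over WT for the 9 tested genes, as diamonds with SE bars (filled for an adjusted p below 0.05, edgeR), and below each the value without 1 library, coloured and shaped by the library left out; Epx without KO3 is not drawn because the remaining KO libraries had 0 counts. Hdc, Siglecf and Cma1 stay left of 0 in every fit, while the other genes move to either side of 0 or close to it.

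Beyond the 10 genes, 82 further genes of these cells were examined in 7 lists, of which 68 passed the low-count filter. Of the 68, 3 rose and 8 fell (edgeR, adjusted p below 0.05), where 1.64% and 1.92% of all tested genes did. Their median log2 fold change was −0.22, against 0.01 over all tested genes. Without KO1 or without KO3 none of these 11 genes passed the test. Of the 11, Mcpt4, Xbp1, Vamp8, Alox5 and Hpgds kept the call without KO2, and Xbp1, Vamp8 and Alox5 without WT1. Xbp1 and Alox5 kept it without WT2, and Hpgds without WT3. With newly called genes included, the fits without KO2, WT1, WT2 and WT3 called 6, 3, 3 and 1 of the 68. Over all tested genes, 11.6% were higher and 10.4% lower at an unadjusted p below 0.05 in edgeR. Limma-voom called 1.34% higher and 1.62% lower, and DESeq2 7.06% and 6.05% of the genes it gave an adjusted p. Each list count below is to be set beside the share at its own threshold.

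Enzymes that make lipid mediators were among the genes that fell. Of 9 genes of leukotriene and prostaglandin synthesis, 2 fell and 0 rose in edgeR, 2 fell and 0 rose in DESeq2, and 1 fell and 0 rose in limma-voom, where Hpgds did not pass (adjusted p = 0.0527). At an unadjusted p below 0.05 in edgeR, 2 were lower and 0 higher. Alox5, the enzyme that starts leukotriene synthesis, was at 310, 384 and 373 CPM in KO against 1348, 812 and 964 CPM in WT, 65.8% lower (log2 fold change −1.55 ± 0.19, adjusted p = 0.0165). Hpgds, the prostaglandin D synthase of mast cells and other blood cells, was at 1.28, 0.479 and 0.800 CPM against 14.3, 14.5 and 5.15 CPM, 92.5% lower (−3.73 ± 0.55, adjusted p = 0.0245). The groups did not overlap for either gene. Ltc4s, which makes leukotriene C4, was at 1.89 to 4.68 CPM in KO and 2.81 to 4.80 CPM in WT, with an adjusted p of 0.793. Alox5 lost the call without KO1, KO3 or WT3, with an adjusted p of at most 0.0635, and Hpgds without KO1, KO3, WT1 or WT2, at most 0.0871.

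Among cytokines and chemokines, 2 of 8 tested genes fell and 0 rose in edgeR. At an unadjusted p below 0.05 4 were lower and 0 higher, DESeq2 called 4 lower and 0 higher, and limma-voom called 0 in either direction. Ccl3, a chemokine of activated myeloid and mast cells, was at 0.360, 1.46 and 2.18 CPM in KO and 33.9, 7.86 and 14.7 CPM in WT. Ccl9, a chemokine of myeloid cells, was at 4.14, 8.21 and 13.1 CPM in KO and 136, 38.0 and 46.6 CPM in WT. Both were highest in WT1 and lowest in KO1, and were 92.9% and 88.5% lower (adjusted p = 0.0479 and 0.0459, edgeR). Neither passed in any fit without 1 library, where adjusted p-values ran from 0.0640 to 0.133. Il4, which basophils and mast cells secrete, was at 0.703 to 3.35 CPM in KO and 2.52 to 3.91 CPM in WT, with an adjusted p of 0.407.

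Of 9 tested surface and cytokine receptors 1 rose and 1 fell in edgeR, the latter being Fcer1g, which did not pass in limma-voom. At an unadjusted p below 0.05 2 were lower and 1 higher. DESeq2 called 2 lower and 1 higher, and limma-voom 0 lower and 1 higher. The log2 fold change was negative for 7 of the 9 and positive for 2. Kit, the stem cell factor receptor on which mast cells depend and which leukaemic progenitors carry too, rose 3.64-fold, from 25.6, 9.90 and 18.1 CPM in WT to 75.9, 74.8 and 44.6 CPM in KO (log2 fold change 1.86 ± 0.37, adjusted p = 0.0450). The groups did not overlap, but the call was lost in every fit without 1 library (adjusted p 0.0520 to 0.156). Il1rl1, the interleukin-33 receptor of mast cells and basophils, was at 9.65 to 34.6 CPM in KO and 25.7 to 35.7 CPM in WT. Ccr3, the eotaxin receptor, followed Ms4a2 in being highest in KO1, with 237 counts, against 39 and 13 in the other KO libraries and 43, 5 and 0 in WT (adjusted p = 0.347). The mast cell receptors Mrgprb1 and Mrgprb2 and the histamine receptor Hrh4 had 0 counts in all libraries.

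Signalling genes downstream of the IgE receptor were abundant in both groups. Of 12, 1 fell and 0 rose in edgeR. At an unadjusted p below 0.05 4 were lower and 2 higher, DESeq2 called 3 lower and 2 higher, and limma-voom 1 lower and 0 higher. The gene that fell was Gab2, the adaptor that links the receptor to PI3-kinase and that BCR-ABL signals through as well. It was at 33.3, 31.2 and 35.6 CPM in KO and 51.7, 53.9 and 45.2 CPM in WT, 33.6% lower (−0.59 ± 0.11, adjusted p = 0.0426). Its adjusted p was 0.0677 to 0.130 without 1 library. Btk, the most abundant gene of the list, was at 228, 250 and 252 CPM against 304, 255 and 271 CPM, with an adjusted p of 0.286.

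For granule storage and release, 1 of 11 tested genes fell and 0 rose in edgeR, in DESeq2 and in limma-voom, with 2 lower and 0 higher at an unadjusted p below 0.05 in edgeR. Vamp8, the vesicle SNARE used in mast cell degranulation, was at 318, 323 and 320 CPM in KO and 436, 433 and 430 CPM in WT, 26.0% lower (−0.43 ± 0.06, adjusted p = 0.0204). The spread within each group was small, with SDs of 2.84 and 2.72 CPM. Vamp8 lost the call without KO1, KO3, WT2 or WT3, with an adjusted p of up to 0.110. Srgn, the core protein of the granule proteoglycan, was at 706 ± 37.1 and 809 ± 113 CPM with overlapping groups. Slc18a2, the transporter that loads histamine into granules, was at 302, 301 and 242 CPM in KO and 427, 148 and 223 CPM in WT, with overlapping groups.

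Of 12 transcription factors 1 fell and 0 rose in edgeR, with 2 lower and 2 higher at an unadjusted p below 0.05. DESeq2 called 1 lower and 1 higher, and limma-voom 1 lower and 0 higher. The factor that fell was Xbp1, which eosinophil precursors require, at 150, 178 and 153 CPM in KO and 411, 259 and 323 CPM in WT (51.5% lower, adjusted p = 0.0283). It did not pass without KO1, KO3 or WT3 (adjusted p up to 0.110). The log2 fold change was positive for 8 of the 12 and negative for 4. Irf8 was at 5.36, 3.14 and 4.87 CPM in KO and 1.25, 0.590 and 0.177 CPM in WT. Its groups did not overlap, but it did not pass the test (log2 fold change 2.72 ± 0.67, adjusted p = 0.0746, edgeR). Mitf, a master factor of mast cells, was at 1.63 CPM or less in all libraries.

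**Figure D5:**
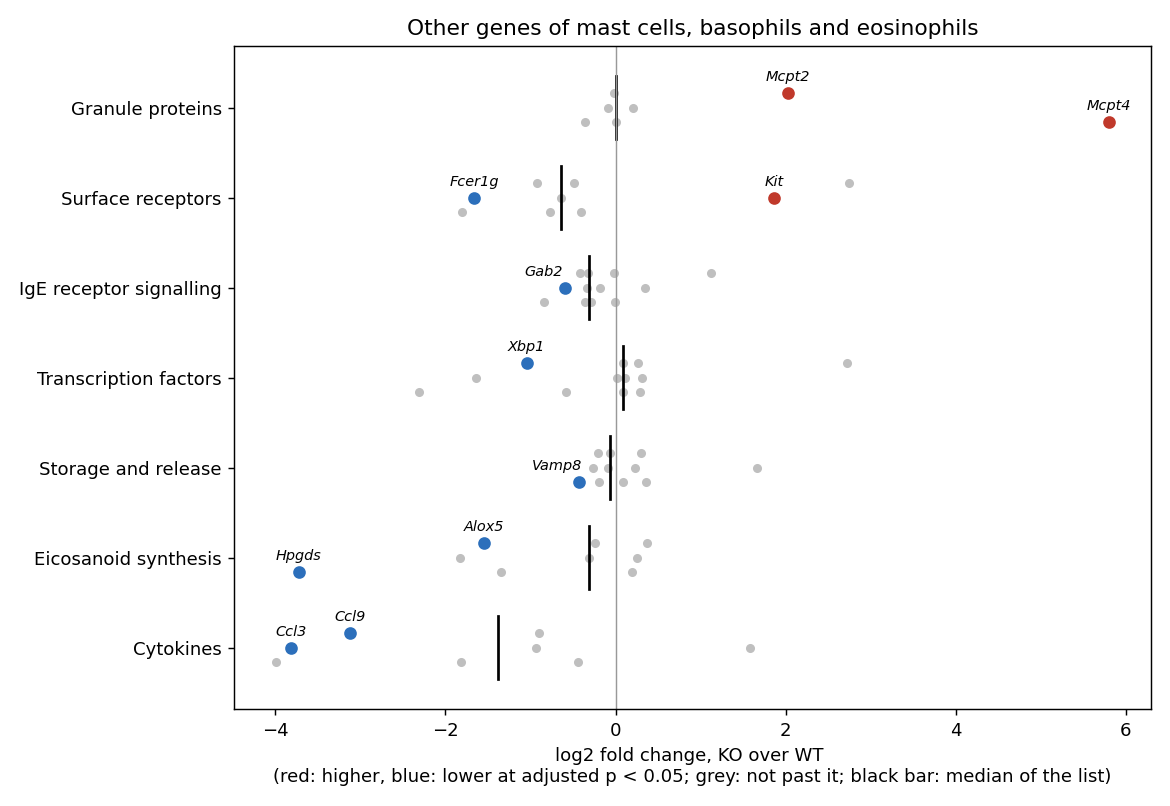
Fitted log2 fold change of KO over WT for the 68 tested genes of 7 lists (rows), 1 point per gene; red and blue named points are higher and lower at an adjusted p below 0.05 in edgeR, grey points are not past it, and black bars are list medians. Mcpt2, Mcpt4 and Kit lie to the right, and Ccl3, Hpgds, Ccl9, Fcer1g, Alox5, Xbp1, Gab2 and Vamp8 to the left.

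Markers of other cell types differed between the libraries as well, and their part in the differences above was not tested. Over all tested genes, 1.64% were higher and 1.92% lower at an adjusted p below 0.05 in edgeR. The shares were 11.6% and 10.4% at an unadjusted p below 0.05, and 1.34% and 1.62% in limma-voom. In DESeq2 they were 7.06% and 6.05% of the genes it gave an adjusted p. Each count below is to be set beside the share at its own threshold. Of 13 tested neutrophil markers 0 passed edgeR's test (0 higher and 4 lower at an unadjusted p below 0.05, 2 lower in DESeq2, 0 in limma-voom). The neutrophil list summed to 25.2 to 240 CPM in KO and 131 to 881 CPM in WT. This sum was highest in WT1, where Hdc, Siglecf and Cma1 were highest too, but not every marker followed it. The log2 fold change was negative for 9 of the 13 and positive for 4. These 4, Cxcr2, Retnlg, Mmp9 and Mmp8, were highest in KO1, at 7.58, 11.1, 18.3 and 3.69 CPM. Ly6g, which defines mature neutrophils, had 0 counts in KO2, KO3 and WT2. Macrophage markers summed to 118 to 196 CPM in KO and 44.1 to 97.4 CPM in WT, with 3 of 12 higher and 0 lower in edgeR. DESeq2 called 8 of them higher and 1 lower, as many as at an unadjusted p below 0.05, and limma-voom 2 higher and 0 lower. Erythroid markers summed to 7901 to 27547 CPM in KO and 2551 to 11019 CPM in WT. Of these, 0 of 12 passed the test (7 higher at an unadjusted p below 0.05, 1 in DESeq2, 0 in limma-voom). Of 10 megakaryocyte markers 1 rose and 1 fell, with sums of 692 to 1058 CPM in KO and 1077 to 2137 CPM in WT. DESeq2 called 3 of them higher and 3 lower, limma-voom 1 and 1, and 3 were higher and 4 lower at an unadjusted p below 0.05. Of 11 T and NK markers 5 were higher, Cd3d, Cd3e, Trbc1, Trbc2 and Cd4, all at 4.41 CPM or less, and 0 were lower. DESeq2 called 8 of the 11 higher and 0 lower, limma-voom 2 and 0, and 8 were higher and 1 lower at an unadjusted p below 0.05. Cd3e was at 2.88, 1.002 and 2.55 CPM in KO and 0.0792, 0 and 0 CPM in WT, and Cd4 had 0 counts in all WT libraries. The summed level of this list, 746 to 1053 CPM in KO and 705 to 858 CPM in WT, was mostly Nkg7, a granule gene of NK and T cells, at 701 to 1033 CPM in KO and 690 to 839 CPM in WT (adjusted p = 0.726).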

How the data were processed

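Reads were counted per gene by the authors, and the deposited table holds these raw counts for the 6 libraries, all of whose columns were used. The submitters' processing notes list featureCounts, Subread 2.0.1, STAR 2.7.9a and fastp 0.23.1. No source used here names a genome build, an annotation or a rule for multi-mapping reads. Per the labels' protocols, the SMARTer and Nextera XT chemistry marks no strand and has no molecular identifiers, so limits on counts cover counting error only.

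Genes were filtered with filterByExpr (minimum count 10, minimum total 15), scaled by TMM and compared with edgeR 4.0.16 (R 4.3.3; quasi-likelihood F test, robust, no covariate, Benjamini-Hochberg adjustment over 15232 genes, threshold 0.05). SE is the log2 fold change divided by the square root of F. The code was tested on simulated counts. Alternatives were other scalings and filters, DESeq2 1.42.0, limma-voom (limma 3.58.1), a replicate block and each library left out.

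The members, gene lists and motifs were chosen with earlier results of these data known. The genes named are Slc6a6, the members, from each list the genes past the test (at most 6) and, where fewer than 2 passed, the most abundant up to 2, and the 5 nearest to Hdc. Other genes, such as Ltc4s, Il4, Il1rl1, Ccr3, Prss34, Prg3, Ear6, Gata1, Mitf, Slc18a2, genes at 0, neighbours of Cma1 and markers of other cells, were named after their values were seen. One further marker list is not reported here. Gene order and promoters came from RefSeq (GRCm38.p6), exon lengths and shared windows from GENCODE M21.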

Additional observations from a re-analysis of the deposited data

How the results depend on the processing

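Hdc, Siglecf and Cma1 were lower in KO under every alternative, and none of the 12 genes called among the members and the related lists changed sign. Calls moved more. Members called lower numbered 1, and 2 with upper-quartile factors, 3 with DESeq2, 0 with limma-voom and 0 with the replicate block, with a range of 0 to 2 when 1 library was left out. Over all genes, 250 were higher and 293 lower, against 1075 and 920 with DESeq2, 8 and 20 with the replicate block, and 13 to 371 and 29 to 247 without 1 library. For the related lists (alternatives added after seeing the data), 3 higher and 8 lower became 1 higher with library totals only, 6 and 13 with DESeq2, 4 lower with limma-voom, 0 and 0 with the replicate block, and 0 to 1 and 0 to 5 without 1 library. Among values past no threshold, the sign turned for Epx (−2.63 in limma-voom, −4.73 with the replicate block, and −10.35 to 1.28 without 1 library, the lowest against a KO group at 0), for Mcpt8 (−0.46 in limma-voom, −0.13 to 1.77 without 1 library), and without 1 library for Cpa3 (0.22 without KO1, 0.37 without WT1, lowest −0.31), Fcer1a (−0.039 to 2.29), Ms4a2 (−0.44 to 1.46) and Gata2 (−0.058 to 0.26). Prg2 moved from −0.62 to −4.60 in limma-voom and −5.26 with the replicate block, without passing the test. The cause was not tested. Same-numbered libraries did not deviate together (correlations over genes of 0.0521, −0.235 and −0.0859), so the replicate block uses a shared number only. With at least 1 CPM in 3 libraries Fcer1a was not tested, and DESeq2 gave no adjusted p for Prg2 and Epx. At these depths a gene with 0 counts may still be present at up to 0.0727 CPM.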

Other observations

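The libraries in which basophil and eosinophil genes were found also differed in other genes. These neighbours in pattern were looked for after the values had been seen, with the same distance as for Hdc and over the same 9845 genes. The pattern nearest to Mcpt8 was that of Prss34 (distance 0.541), and the next nearest, Trgj1, lay at 1.25. The patterns nearest to Prg2 were those of Elane (1.08) and Mpo (1.18), granule enzymes of early neutrophil precursors, then Prss34 (1.46), Ly6c2 (1.79) and Ms4a3 (1.85), a gene of granulocyte and monocyte progenitors. Elane had 0, 20 and 571 counts in KO and 1583, 325 and 231 in WT. Mpo had 0, 76 and 898 counts in KO and 2678, 560 and 374 in WT. KO1, with 44902511 counts in total, thus had no read of Elane, Mpo, Prss34, Prg2 or Epx, and 7 of Mcpt8. Other neutrophil granule genes were read there, Prtn3 with 91 counts and Ctsg with 268.

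The named genes with patterns nearest to Ms4a2 were Ddx60 (0.467), Irgm2 (0.504), Sh2d3c (0.527), Rtp4 (0.550) and Trim30a (0.568), at ranks 1, 3, 4, 5 and 6; the gene at rank 2 is a provisional gene or pseudogene, which is not named. Rtp4 was at 127, 24.1 and 15.3 CPM in KO and 37.3, 28.8 and 23.5 CPM in WT. Trim30a was at 83.8, 39.1 and 25.5 CPM against 30.04, 15.2 and 20.7 CPM. Both were highest in KO1, as Ms4a2 was, and neither passed edgeR's test between the groups (adjusted p = 0.536 and 0.192, n = 3 against 3).

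Farther along the row of protease genes that starts with Cma1, Gzmg, a granzyme, had 0 counts in KO and 54, 15 and 16 in WT (adjusted p = 0.0518, edgeR). Other granzymes of the row did not share this pattern. Gzmc had 10, 6 and 25 counts in KO and 12, 0 and 0 in WT. Gzmb was at 1133, 782 and 568 CPM in KO and 470, 453 and 597 CPM in WT (adjusted p = 0.475 and 0.155, edgeR). Gzmd, Gzme and Gzmf had 0 counts in all libraries, and Gzmn had 5, all in WT2.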
